A study of Caenorhabditis elegans with 8 samples.

Results

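The basement membrane is the thin sheet of extracellular matrix that lines muscle, intestine, epidermis, nerve cord and gonad. The genes described here are 10 components of that sheet in Caenorhabditis elegans, chosen by name: the type IV collagen chains emb-9 and let-2, the laminin subunits lam-1, lam-2, lam-3 and epi-1, the nidogen nid-1, the perlecan unc-52, the type XVIII collagen cle-1 and the SPARC homologue ost-1. All 10 were found among the 18339 genes listed for both replicate numbers, and all 10 passed the filter on low counts that left 15874 genes for testing.

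RNA sequencing was done on whole worms carrying a mir-83 mutation (strain MT15501) and on the wild type N2. The libraries form 4 groups of 2: mir-83 at adult day 12, N2 at day 12, mir-83 at day 4 and N2 at day 4, 8 libraries in all. All worms were grown at 20 °C on nematode growth medium with FuDR, a drug that blocks DNA synthesis and is used to stop progeny from developing, so every group, N2 included, carries its effects. The labels do not give the allele, and they do not state that replicates were grown as separate cultures. The tests then judge differences against the scatter among these libraries, and that scatter may be technical only.

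Laminin trimers, each of an alpha, a beta and a gamma subunit, assemble first at cell surfaces and bind integrin and dystroglycan receptors. Type IV collagen then forms a covalently cross-linked network that gives the sheet its tensile strength, and nidogen and perlecan join both networks. In C. elegans much of the type IV collagen is made in body wall muscle and reaches other tissues through the body cavity, and SPARC binds the collagen on its way there. The microRNA miR-83 is a worm relative of the vertebrate miR-29 family, which is known for repressing collagen and other matrix genes.

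Sequencing depth ran between 20270542 and 41181094 assigned reads per library, and the members' counts in single libraries between 58 reads (lam-3) and 19152 reads (let-2). Levels are CPM, a library's counts as a share of its total, scaled by edgeR's TMM factors, which correct for differences in RNA makeup. Those factors set the day 4 mutants apart, at 0.644 and 0.596 against 1.08 to 1.23 in the other 6 libraries. With plain library sizes in their place, the middle of the distribution of log2 fold changes between mir-83 and N2 at day 4, taken over all genes, moved to -0.99, against -0.14 with TMM, so changes at that age are also given relative to that median. The replicates of mir-83 at day 12 were unlike each other: their log2 levels correlated at r = 0.894, while replicate 1 correlated at 0.975 with N2 day 12 replicate 1 and replicate 2 at 0.952 with N2 day 4 replicate 2. RNA of the mir-83 gene itself was not analysed here, so the genotype labels were not checked against it. As the label of whole worms implies, every marker of body wall muscle, pharyngeal muscle, intestine, neurons and germline on the lists used was detected in all 8 libraries. In whole worms, fewer cells of a type and less RNA per cell cannot be told apart.

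Type IV collagen RNA was highest in mir-83 worms at day 4. Laminin levels in those same libraries lay below both N2 libraries of that age, as 35.4% of all genes tested did, without passing the test. The let-2 level was 6.55 times that of N2 at day 4 and passed the test. The emb-9 level was 5.51 times that of N2 and missed the threshold narrowly. At day 12 no member passed the test between the genotypes, nor did any of the 15874 genes tested. Within the mutant let-2, emb-9, unc-52, ost-1 and cle-1 fell between the ages, where 15.1% of all genes tested passed as lower. No member passed the direct test of whether age changed it differently in the 2 genotypes, nor did any other gene.

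**Figure D1:**
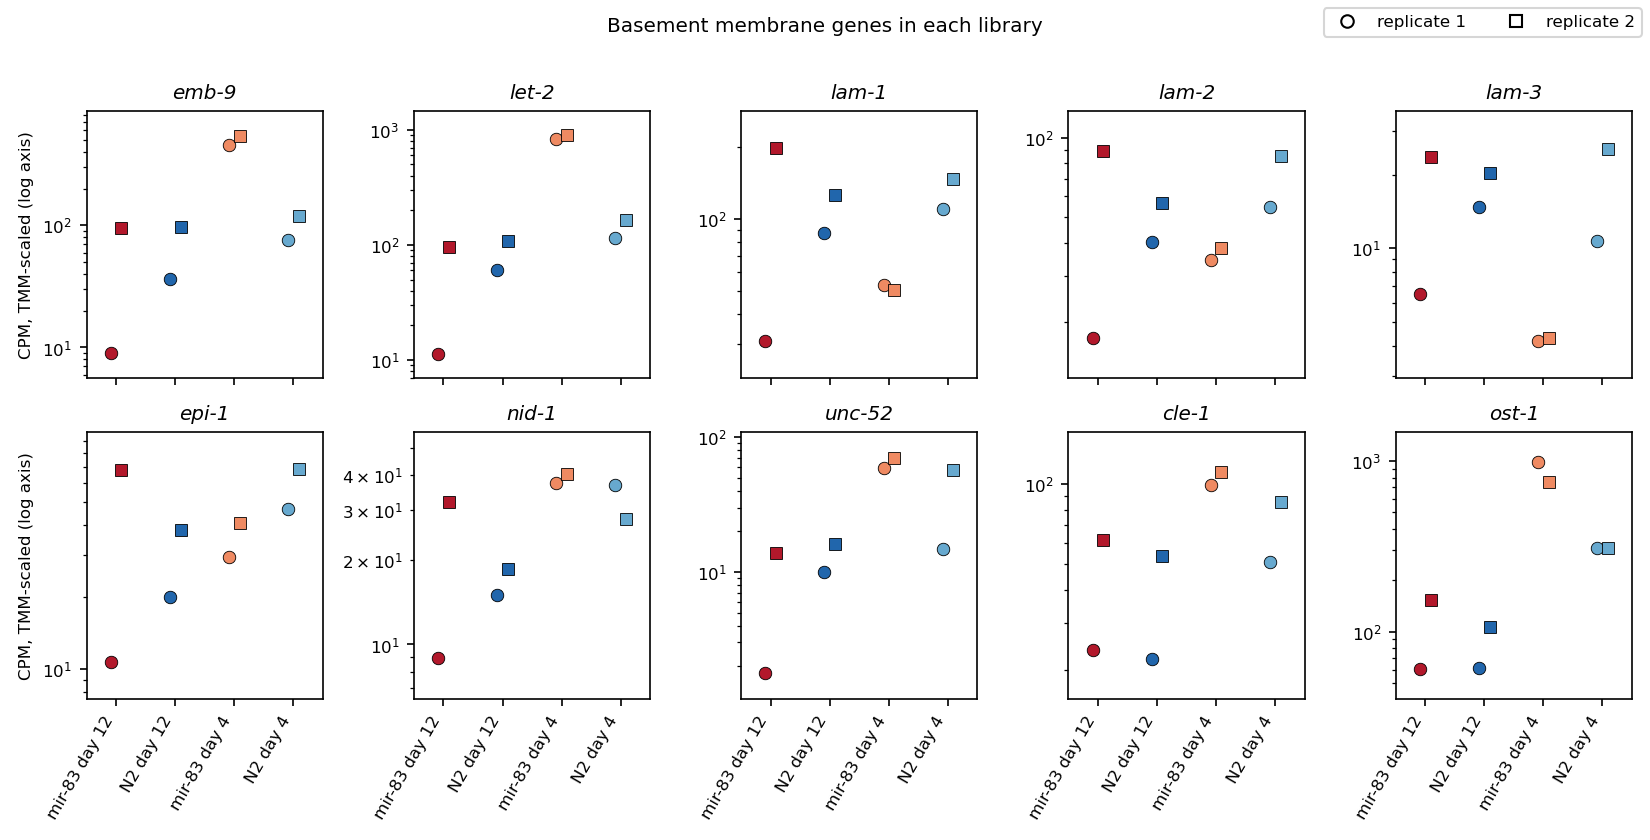
Levels of the 10 basement membrane genes in the 8 libraries, as TMM-scaled CPM on a log axis, with one panel per gene and the groups along the horizontal axis (circles replicate 1, squares replicate 2). The emb-9, let-2 and ost-1 points are highest in mir-83 at day 4, and the laminin points of that group lie below those of N2 at day 4.

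The gene let-2 encodes the alpha-2 chain of type IV collagen and lies on chromosome X, minus strand, chrX:16380597-16389340 (ce11, the same assembly as WBcel235). Its level was 833 and 897 CPM in mir-83 at day 4, against 114 and 165 CPM in N2 at day 4. Both mutant libraries lay far above both N2 libraries, and the group means were 865 ± 44.7 CPM and 140 ± 36.1 CPM (SD, n = 2 each). The log2 fold change was 2.71 ± 0.64 (SE), with an adjusted p of 0.0444 in edgeR's quasi-likelihood test. Relative to the median of all genes it was 2.85 with TMM factors and 2.86 with plain library sizes. With plain sizes let-2 was still higher, at 1.86, but no longer passed (adjusted p = 0.0744).

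The other chain, alpha-1, is encoded by emb-9 (chrIII:9336881-9344447, minus strand). It had 460 and 541 CPM in mir-83 at day 4, against 75.3 and 120 CPM in N2 at day 4, again without overlap. Its log2 fold change of 2.46 ± 0.66 (SE) had an adjusted p of 0.0607. A type IV collagen trimer in the worm takes both chains, and their levels per kilobase of exon kept within a narrow ratio of emb-9 to let-2, between 0.573 and 1.03 in the 8 libraries. Over the 8 libraries, the log2 levels of the 2 chains, centred within each replicate number, correlated at r = 1.0, a description that includes the shared contrast of the 4 groups.

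All 4 laminin genes had lower levels in both mir-83 libraries at day 4 than in both N2 libraries, as 35.4% of all genes tested did. None of the 4 passed the test with TMM factors. The gamma subunit gene lam-2 (chrX:7143846-7151239, minus strand) had 34.6 and 38.3 CPM in mir-83, against 54.6 and 84.9 CPM in N2. The beta subunit gene lam-1 (chrIV:5173332-5183746, plus strand) had 52.6 and 50.5 CPM in mir-83, against 110 and 147 CPM in N2. These shared subunits enter every laminin trimer of the worm, and their log2 fold changes were -0.86 ± 0.49 (adjusted p = 0.299) for lam-2 and -1.26 ± 0.56 (adjusted p = 0.202) for lam-1 (SE).

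The worm has 2 alpha subunits, which define its 2 laminins. The gene lam-3 (chrI:10608466-10621435, plus strand) had 4.2 and 4.31 CPM in mir-83 at day 4, against 10.7 and 25.5 CPM in N2. The mutant libraries were the lowest of all 8 for this gene, and its log2 fold change of -1.92 ± 0.54 (SE) had an adjusted p of 0.069. The gene epi-1 (chrIV:10666823-10679291, plus strand) had 29.5 and 40.9 CPM in mir-83, against 46.5 and 68.4 CPM in N2, with a log2 fold change of -0.69 ± 0.51 (SE, adjusted p = 0.428). With plain library sizes lam-3 (log2 -2.76, adjusted p = 0.0141), lam-1 (-2.10, adjusted p = 0.0435) and lam-2 (-1.71) passed as lower, where 24.1% of all genes did. Relative to the median of all genes the laminin differences were between -1.78 for lam-3 and -0.55 for epi-1 with TMM factors.

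SPARC, encoded by ost-1 (chrIV:1107396-1110872, plus strand), is a small collagen-binding protein and had the highest level per kilobase of the 10 genes in every library. It had 986 and 752 CPM in mir-83 at day 4, against 309 and 309 CPM in N2, with no overlap. The log2 fold change was 1.52 ± 0.41 (SE) and missed the threshold (adjusted p = 0.062).

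Perlecan, encoded by unc-52 (chrII:14647321-14684456, minus strand), anchors the muscle attachments under the body wall. It had 58.9 and 69.7 CPM in mir-83 at day 4, against 14.7 and 57.4 CPM in N2. The N2 libraries were further apart from each other than the higher of them was from the mutants, and the log2 fold change of 1.23 ± 0.62 (SE) did not pass (adjusted p = 0.245).

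The type XVIII collagen gene cle-1 (chrI:8705668-8724279, minus strand), whose product carries an endostatin-like end and acts at synapses and in cell migration, had 98.9 and 111 CPM in mir-83 at day 4, against 50.9 and 85.4 CPM in N2. Its exons overlap those of cdk-8 on the other strand, a gene with 15581 reads over the 8 libraries, and no source used here states whether the counting used strand. Nidogen, encoded by nid-1 (chrV:12910107-12917221, plus strand), links laminin to type IV collagen, and had 37.5 and 40.4 CPM in mir-83, against 36.7 and 27.8 CPM in N2. The log2 fold changes were 0.71 ± 0.34 (adjusted p = 0.221) for cle-1 and 0.24 ± 0.51 (adjusted p = 0.801) for nid-1 (SE), and with plain library sizes both turned negative, at -0.13 for cle-1 and -0.62 for nid-1.

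Counted together, 1 of the 10 genes, let-2, passed the test at day 4, where 7.04% of all genes tested passed in either direction, 4.42% passed as higher and 2.62% as lower. With TMM scaling 6 members had both mutant libraries above both N2 libraries, as 29.4% of all genes tested did, and the 4 laminin genes had both below, as 35.4% did. With plain CPM 3 members were above (9.88% of all genes), 5 below (64.5%) and 2, unc-52 and cle-1, overlapped. The members' median log2 fold change was 0.47, beside -0.14 over all genes tested. The call on let-2 was lost when any one of the 4 day 4 libraries was left out (adjusted p of 0.125 and 0.18 without N2 replicate 1 and 2, 0.318 and 0.207 without mir-83 replicate 1 and 2), while its log2 fold change stayed between 1.93 and 3.25. Few genes of any kind passed in those 4 fits: 56 and 12 without N2 replicate 1 and 2, and 0 without either mir-83 library, against 1118 with all libraries. In a fit of the 4 day 4 libraries alone 8 members passed (emb-9, let-2, ost-1 and cle-1 higher, the 4 laminin genes lower), where 34.3% of genes passed. DESeq2 called 4 members (emb-9, let-2 and ost-1 higher, lam-3 lower), where it called 16.6% of genes. Without the replicate block none of the 10 passed.

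**Figure D2:**
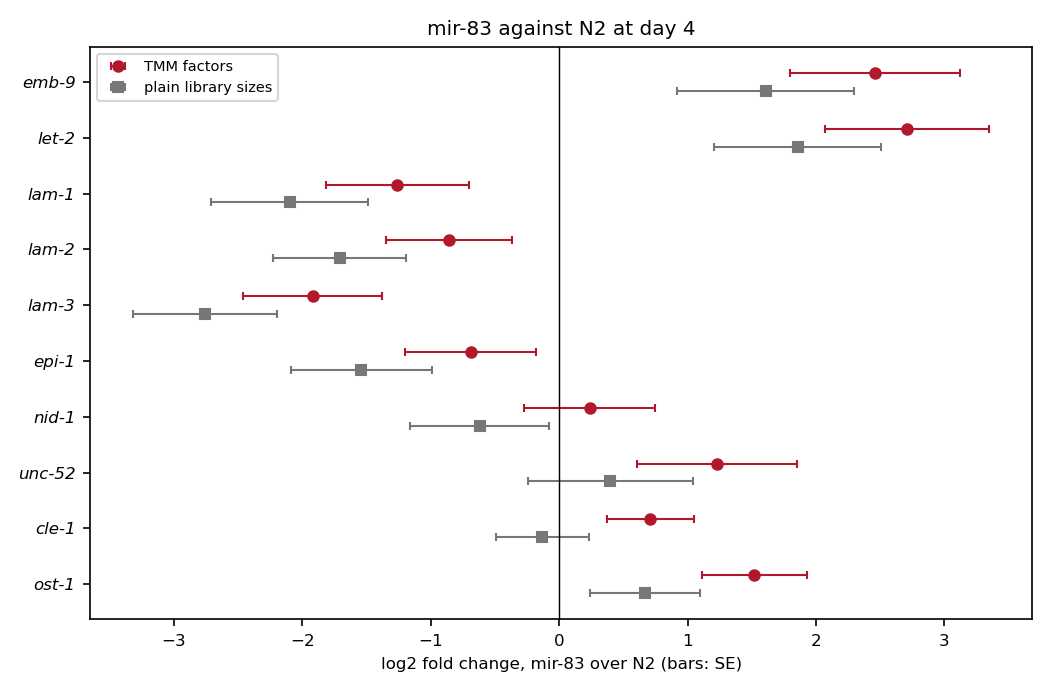
Log2 fold change of each basement membrane gene between mir-83 and N2 at day 4, with TMM factors and with plain library sizes (bars: standard error). The type IV collagen and SPARC genes lie right of 0 and the laminin genes left of 0 under both scalings, while nid-1 and cle-1 change sign.

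A ratio within one library does not depend on how libraries are scaled. The summed level per kilobase of the 2 type IV collagen genes over that of the 4 laminin genes was 12.7 and 13.2 in mir-83 at day 4, against 1.0 and 1.04 in N2 at day 4. The mutant libraries agreed closely with each other, and the ratio was 12.7-fold higher in mir-83 (log2 difference 3.67). In both day 12 groups the ratio was near or below that of N2 at day 4, at 0.363 and 0.593 in mir-83 and 0.684 and 1.0 in N2. The exact two-sided permutation test gave p = 0.333 at day 4 and at day 12, the smallest that 2 libraries against 2 allow.

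Ratios among the laminin genes moved less. The beta to gamma ratio, lam-1 over lam-2 per kilobase, lay between 1.35 and 2.27 in the 8 libraries. The summed alpha subunits over lam-2 lay between 0.499 and 0.645, so alpha RNA and gamma RNA kept a near constant proportion in all groups. The proportion of the alpha subunits to each other differed more: epi-1 over lam-3 was 5.9 and 7.99 in mir-83 at day 4, against 3.64 and 2.26 in N2 at day 4. At day 12 it was 1.38 and 2.42 in mir-83 and 1.15 and 1.58 in N2. Every day 12 library but mir-83 replicate 2 thus lay below all 4 day 4 libraries.

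**Figure D3:**
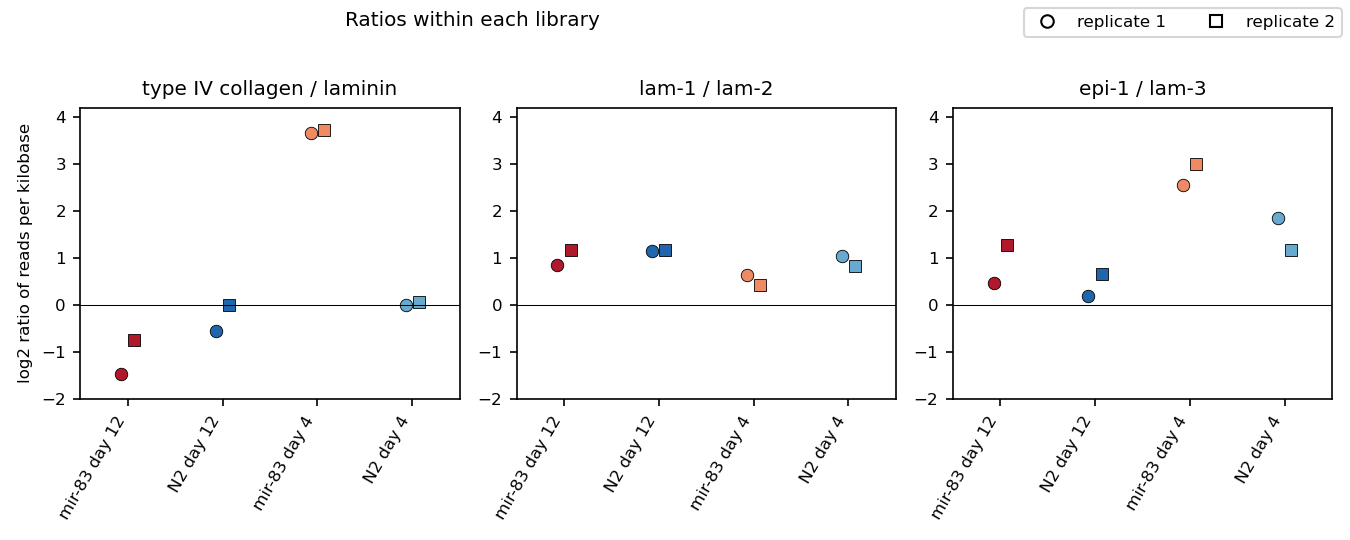
Ratios of levels per kilobase within each library, on a log2 axis (circles replicate 1, squares replicate 2). The type IV collagen to laminin ratio of the mir-83 day 4 libraries, 12.7 and 13.2, stands apart from the other 6 libraries, which lie between 0.363 and 1.04.

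As a share of the summed level per kilobase of the 10 genes, type IV collagen made up 19.9% and 26.1% in mir-83 at day 4, against 9.32% and 12.6% in N2 at day 4. Laminin made up 1.57% and 1.98% in mir-83, against 9.32% and 12.1% in N2. The share of ost-1 ran between 50.6% and 75.7% over the 8 libraries.

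Of 12 other matrix proteins, mig-6 alone passed at day 4. It encodes papilin, a secreted glycoprotein of the basement membrane, and had 397 and 449 CPM in mir-83, against 71.5 and 163 CPM in N2, a log2 fold change of 2.03 ± 0.41 (SE, adjusted p = 0.0305). The list's median was 0.13. Of 10 receptors, dgn-1, encoding dystroglycan, alone passed: it had 140 and 124 CPM in mir-83, against 34.6 and 39.5 CPM in N2, a log2 fold change of 1.86 ± 0.44 (SE, adjusted p = 0.0454). With plain library sizes neither list had a gene past the threshold as higher, while 1 matrix protein and 2 receptors passed as lower. Of all 15874 genes tested, 210 passed as higher and 24.1% as lower on that scale.

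None of 7 genes for collagen hydroxylation and secretion passed, and their median log2 fold change was 0.56. Among them pdi-2, a subunit of the collagen prolyl 4-hydroxylase, had 702 and 603 CPM in mir-83 at day 4, against 378 and 409 CPM in N2, a log2 fold change of 0.75 (adjusted p = 0.347). The secretion factor gene tmem-131 had a log2 fold change of 0.56 (adjusted p = 0.209). None of 10 proteases and inhibitors passed either. Their median was 0.62, with 6 estimates positive and 4 negative. The inhibitor genes timp-1 and cri-2, the 2 with the highest mean level, were among the negative ones, at -0.16 and -0.80.

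Markers of several tissues moved at day 4 too. Of 10 body wall muscle markers 4 rose and none fell, with unc-54, the main myosin heavy chain, at 3.02 and unc-15, paramyosin, at 2.81 (log2). The list's median was 1.85, and its summed level was 6218 and 5719 CPM in mir-83, against 1260 and 1636 CPM in N2, with no marker at 0. Among the other tissues, 4 of 7 intestine, 2 of 5 pharyngeal muscle, 2 of 10 neuron and 3 of 10 germline markers rose. Over all genes tested 4.42% passed as higher and 2.62% as lower. With plain library sizes no germline marker rose and 4 fell, and 1 neuron marker fell. On that scale 4 body wall muscle, 2 intestine, 1 pharyngeal and 2 neuron markers still rose. There 210 of all 15874 genes tested passed as higher and 24.1% as lower. The summed intestine level was 6577 and 7545 CPM in mir-83, against 1841 and 1413 CPM in N2, and the summed germline level 4428 and 3923 CPM in mir-83, against 1777 and 1875 CPM in N2. None of 7 hypodermis, 8 sperm, 5 somatic gonad or 2 coelomocyte markers passed, although 1 coelomocyte marker passed as lower with plain library sizes. The summed hypodermis level was nevertheless 7546 and 8683 CPM in mir-83, against 576 and 3402 CPM in N2. Estimates of the hypodermis markers were positive for 5 and negative for 2, with a median of 0.57. Of 9 embryo genes tested, 3 fell (6 with plain library sizes), and the summed embryo level was 1.67 and 3.28 CPM in mir-83, against 27.2 and 29.0 CPM in N2. Both mir-83 libraries were at 0 for tbx-35 and tbx-38, replicate 1 also for sdz-4 and sdz-38, and N2 replicate 1 for tbx-35. The part of these tissues in the collagen and laminin values was not tested.

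**Figure D4:**
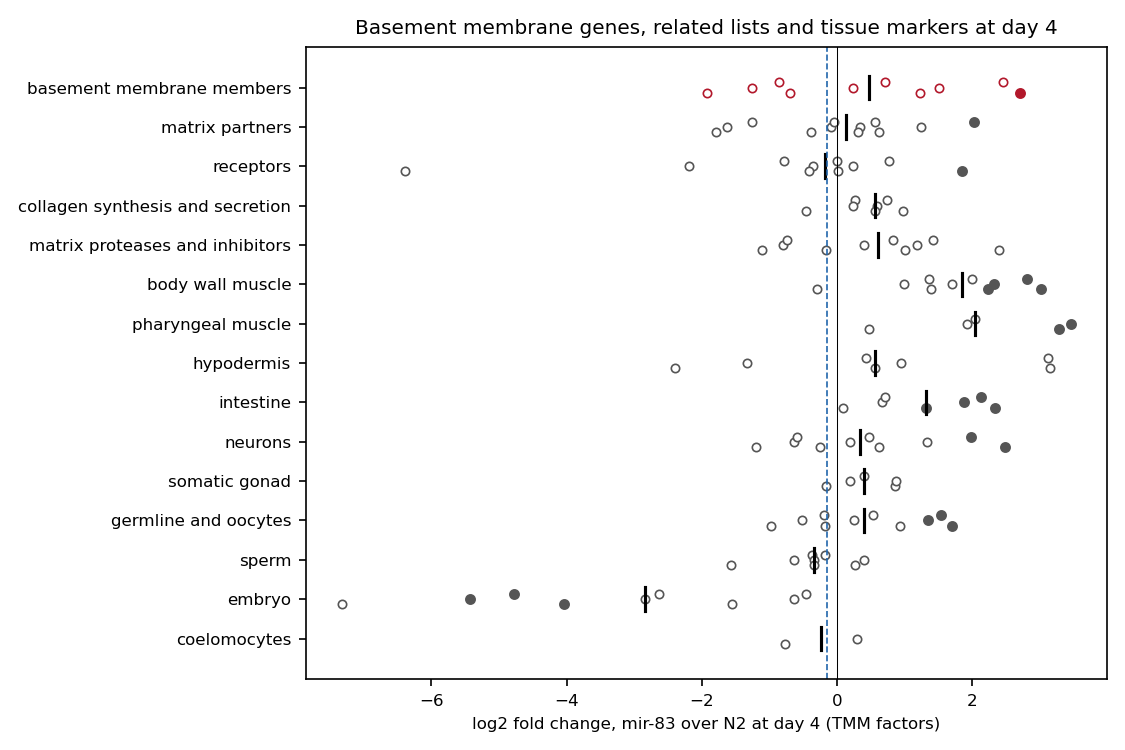
Log2 fold changes between mir-83 and N2 at day 4 for each gene of the member set and the other lists (filled points passed the threshold, black ticks are list medians, the dashed line is the median of all genes, -0.14). The body wall muscle median, 1.85, lies above the members' median of 0.47.

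At day 12 no basement membrane gene passed the test between the genotypes, and none of the 15874 genes tested did (0%), with 307 under 0.05 before adjustment. DESeq2 called 4 genes (0.0252%), no member among them. For let-2 the values were 11.3 and 96.2 CPM in mir-83, against 60.9 and 109 CPM in N2, and for lam-1 30.8 and 197 CPM in mir-83, against 87.3 and 125 CPM in N2. The first mutant library was below both N2 libraries for let-2 and lam-1, and the second was between the N2 libraries for let-2 and above both for lam-1. The 2 groups overlapped for each of the 10 members, whereas 5.48% of all genes had both mutant libraries above both N2 libraries and 8.25% both below. Of the 10, 4 had the same sign in both replicates. Between the replicate 1 libraries the median log2 difference of the members was -1.19, between the replicate 2 libraries it was 0.38, and the fit gave -0.14.

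Within the mutant, RNA of both type IV collagen chains fell between the ages. The labels name one flow cell for the replicate 1 libraries of day 12 and another for those of day 4, so in that replicate age and sequencing run cannot be told apart. In mir-83 worms let-2 had 11.3 and 96.2 CPM at day 12, against 833 and 897 CPM at day 4, a log2 fold change of -4.47 ± 0.71 (SE, adjusted p = 0.0058). For emb-9 the values were 8.97 and 95.9 CPM at day 12, against 460 and 541 CPM at day 4, a change of -3.86 ± 0.72 (SE, adjusted p = 0.0091). Day 12 replicate 1 of the mutant was the lowest of the 8 libraries for each chain.

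The perlecan gene unc-52 had 1.78 and 13.8 CPM at day 12, against 58.9 and 69.7 CPM at day 4 (log2 -3.60 ± 0.68, SE, adjusted p = 0.00922). The SPARC gene ost-1 had 60.2 and 153 CPM at day 12, against 986 and 752 CPM at day 4 (log2 -3.15 ± 0.44, SE, adjusted p = 0.00429). The type XVIII collagen gene cle-1 had 23.7 and 61.8 CPM at day 12, against 98.9 and 111 CPM at day 4 (log2 -1.47 ± 0.34, SE, adjusted p = 0.0183). Of these 3, cle-1 missed the threshold with plain library sizes, at -0.52 (adjusted p = 0.281).

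No laminin gene passed as lower with age in the mutant when all 8 libraries were used. The lam-3 level was 6.52 and 23.5 CPM at day 12, against 4.2 and 4.31 CPM at day 4 in the mutant, a log2 fold change of 1.57 ± 0.54 (SE, adjusted p = 0.0621) that passed with plain sizes at 2.53 (adjusted p = 0.0109). The lam-1 level was 30.8 and 197 CPM at day 12, against 52.6 and 50.5 CPM at day 4, with one day 12 library on each side. The other 3 members that did not pass had log2 fold changes of 0.25 (lam-2), -0.20 (epi-1) and -1.05 (nid-1). In all, 5 of the 10 members fell in the mutant, where 27.9% of all genes tested passed in either direction and 15.1% passed as lower.

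Which members passed depended on the day 12 library used. Without mir-83 day 12 replicate 1, 7 passed (emb-9, let-2, ost-1 and unc-52 as lower, lam-1, lam-2 and lam-3 as higher), and without replicate 2, 7 passed as lower (emb-9, let-2, ost-1, unc-52, cle-1, epi-1 and nid-1). Without mir-83 day 4 replicate 1, 2 passed, let-2 and ost-1. Over all genes 2616, 5649 and 579 passed in these 3 fits, in the same order, against 4431 with all libraries. The body wall muscle markers fell as well in the mutant, 9 of 10, with a median of -3.79 and summed levels of 192 and 496 CPM at day 12, against 6218 and 5719 CPM at day 4. All 5 pharyngeal muscle and all 7 intestine markers fell, as did 4 of 7 hypodermis and 5 of 10 neuron markers, 3 of 10 germline markers and 1 of 5 somatic gonad markers. Another 3 germline markers and 5 of 9 embryo genes rose. With plain library sizes 8 body wall muscle, 4 pharyngeal, 4 intestine, 3 hypodermis and 3 neuron markers fell. On that scale 1 hypodermis, 2 neuron, 6 germline, 2 of 8 sperm and 6 embryo genes rose. Of all 15874 genes tested, 5917 passed as higher and 976 as lower with plain sizes, against 2028 and 2403 with TMM factors. The part of these tissues in the members' fall was not tested.

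Some genes of the other matrix lists passed as lower with age in the mutant, where 15.1% of all genes did. Of 12 matrix proteins, mig-6 (-3.87 ± 0.44, SE, adjusted p = 0.00252) and test-1 (-3.13 ± 0.41, adjusted p = 0.00346) passed. The gene test-1 encodes a testican-like proteoglycan. Of 10 receptors dgn-1 passed (-2.16 ± 0.46, adjusted p = 0.0132), and of 10 proteases and inhibitors the proteases adt-2 (-3.03) and zmp-3 (-2.84) did. Estimates were negative for 10 of 12 matrix proteins, 3 of 10 receptors, and 9 of 10 proteases and inhibitors. None of the 7 collagen synthesis and secretion genes passed, with pdi-2 at -1.50 (adjusted p = 0.0525). Under plain scaling 2 matrix proteins and 1 protease or inhibitor passed as lower, where 976 of all 15874 genes tested did. No receptor did, so the call on dgn-1 was lost. On that scale 3 of 10 receptors, 2 of 7 collagen synthesis genes and 1 of 10 proteases and inhibitors passed as higher. So did 5917 of the 15874 genes.

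In N2 1 member, ost-1, fell with age. That gene had 61.3 and 106 CPM in N2 at day 12, against 309 and 309 CPM at day 4, a log2 fold change of -1.95 ± 0.42 (SE, adjusted p = 0.043). Of the 10 genes 1 passed, where 4.5% of all genes tested passed in either direction and 2.39% passed as lower. The other 9 had log2 fold changes between -1.18 and 0.06, with the members' median at -0.85 beside -0.09 over all genes. For let-2 the N2 values were 60.9 and 109 CPM at day 12, against 114 and 165 CPM at day 4. The higher day 12 and the lower day 4 library were close. With plain library sizes ost-1 was at -1.85 and missed the threshold (adjusted p = 0.0565). It also missed without N2 day 4 replicate 1 (0.266), N2 day 12 replicate 1 (0.148) or 2 (0.108), or mir-83 day 4 replicate 1 (0.0592) or 2 (0.0577). Over all genes 4, 0, 0, 120 and 129 passed in these 5 fits, in the same order, against 715 with all libraries. In the same comparison 1 of 12 matrix proteins, test-1 (-2.46, adjusted p = 0.027), and 3 of 10 body wall muscle and 3 of 7 intestine markers fell, and 1 of 10 germline markers rose. Under plain scaling 4 germline markers and 1 collagen synthesis gene rose, and the same numbers of matrix, muscle and intestine genes fell. On that scale 660 of all 15874 genes tested passed as higher and 290 as lower.

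**Figure D5:**
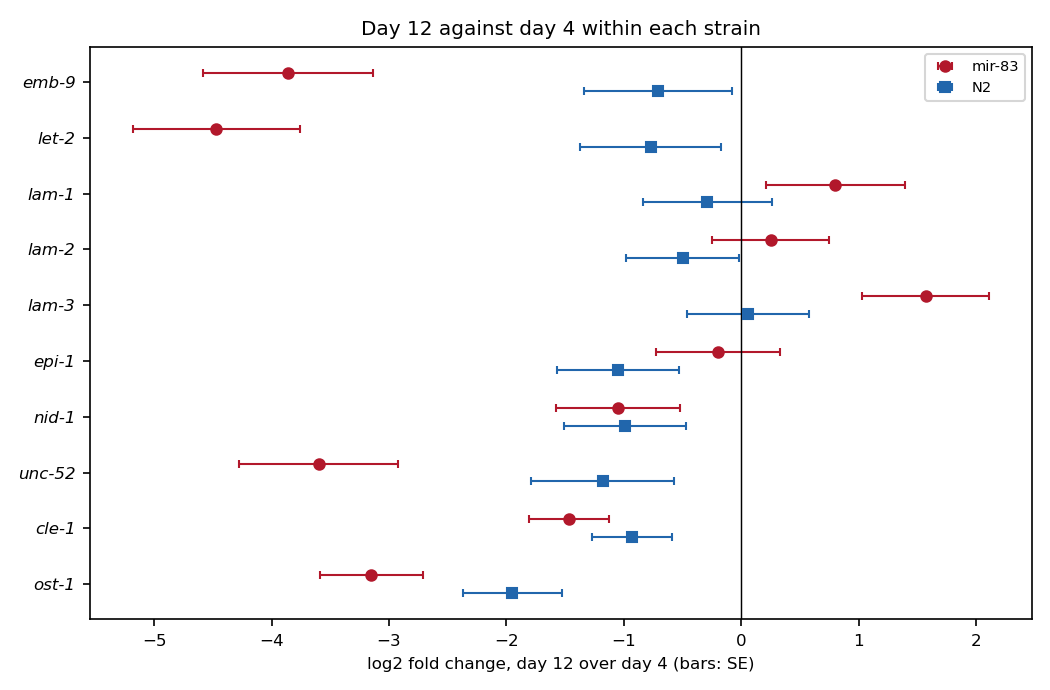
Log2 fold change at day 12 relative to day 4 of each basement membrane gene in mir-83 and in N2 (bars: standard error). The type IV collagen, perlecan and SPARC genes lie furthest left in mir-83, with let-2 at -4.47, while the laminin genes of mir-83 lie between -0.20 and 1.57.

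Whether age changed these genes differently in the 2 genotypes was tested directly. None of the 10 genes passed, nor did any of all genes tested (0%): the smallest adjusted p was 0.0543, with 2919 genes under 0.05 before adjustment. The count by DESeq2 was 1329 genes, or 8.37%. The largest estimates among the members were -3.69 ± 0.89 for let-2 (SE, adjusted p = 0.0895), -3.15 ± 0.92 for emb-9 (adjusted p = 0.127) and -2.42 ± 0.90 for unc-52 (adjusted p = 0.205). Of the members, let-2 and emb-9 were among the genes DESeq2 called. The laminin estimates lay between 0.75 ± 0.70 for lam-2 (adjusted p = 0.631) and 1.51 ± 0.75 for lam-3 (adjusted p = 0.335). Their sign was opposite to the collagens in the fit, but not in both replicates. In replicate 1 lam-1 (-0.43), lam-2 (-0.56) and epi-1 (-0.26) were negative like the collagens, and in replicate 2 they were at 2.19, 1.8 and 1.58. For lam-3 the values were 0.18 and 2.78. Without mir-83 day 12 replicate 1 lam-1 and let-2 passed, and without replicate 2 emb-9, let-2 and unc-52 did. Over all genes 553 passed without replicate 1 and 528 without replicate 2, against 0 with all libraries.

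The split of reads among transcripts of a gene was compared across groups for emb-9, let-2 and ost-1. In the annotation used for replicate 1 the emb-9 transcript K04H4.1a took between 51.7% and 55.9% of emb-9 reads in the 4 libraries. There the let-2 transcript F01G12.5a.1 took between 25.3% and 32.5% of let-2 reads, F01G12.5b.1 between 23.9% and 28.8%, and the ost-1 transcript C44B12.2a between 33.1% and 34.5% of ost-1 reads. In that used for replicate 2 the larger of the 2 let-2 transcripts took between 51.3% and 52.3% and the larger of the 2 ost-1 transcripts between 76.8% and 78.7%. Reads of exons that transcripts share could have been assigned to either, so these shares need not measure isoform use.

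Likeness to the mean of the 10 members was Pearson's r of log2 CPM centred within each replicate number over the 8 libraries. The search covered 4959 genes outside the members with a mean of at least 10 CPM and a symbol of letters and a number. Among these the most alike were ncs-2 (0.986), rei-2 (0.979), fipr-21 (0.975), zip-12 (0.974), dnj-24 (0.971) and mca-2 (0.968). Within the set, ost-1 and cle-1 correlated at 0.99 and lam-1 and lam-2 at 0.95, while emb-9 and lam-1 were at -0.1. These values share the same 8 libraries and the same group differences and are descriptions only.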

How the data were processed

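Whole-worm RNA was sequenced in 8 libraries. Per the submitters' processing notes, Bowtie2 and edgeR were used with the ce11 genome; versions and settings are not stated. The authors deposited read counts per transcript, with one sheet for each replicate number: 30443 lines with WormBase names for replicate 1 and 29023 lines with RefSeq accessions for replicate 2. Counts were summed per gene through the Ensembl WBcel235 annotation and RefSeq gene tables. Unmatched lines held 0.091% and 0.229% of reads in the 2 sheets and were left out, as were genes absent from one sheet. This left 18339 genes.

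The members and gene lists were chosen with earlier results of these data known. edgeR 4.0.16 (R 4.3.3) was run with TMM factors, its filterByExpr filter (minimum count 10), 1 mean per group, the replicate number as a block and quasi-likelihood tests, with Benjamini-Hochberg adjustment over the 15874 genes tested and a threshold of 0.05. Each standard error is the log2 fold change divided by the square root of its F statistic. The block was kept because the replicate numbers use different annotations, and same-numbered libraries deviated together from their group means, with correlations between 0.119 and 0.416 over the 6 pairs of groups. Levels per kilobase use the union of annotated exons. Named genes were all members; of each list up to 4 past the threshold by smallest p or, where none passed, the 2 with the highest mean; and the 6 genes most like the members' mean. The results were also computed with DESeq2 1.42.0, with RLE size factors, with plain library sizes, without the filter, without the block, from the 4 libraries of a comparison alone, with the highest transcript per gene and leaving out each library. The 3 residual degrees of freedom limit precision.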

Additional observations from a re-analysis of the deposited data

How the results depend on the processing

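With 2 libraries a group, calls moved with settings more than directions did. For mir-83 against N2 at day 4, the members past the threshold, 1 as reported, numbered 3 with RLE size factors, 3 without the filter, 4 with DESeq2, 3 with plain library sizes, all lower, and 8 with the 4 libraries compared alone. Without the replicate block they numbered 0, and over left-out libraries between 0 and 6. Among all genes, 1118 as reported, 322 passed without the replicate block, 2635 with DESeq2, 4035 with plain sizes and 4874 with the 4 libraries alone, and between 0 and 2510 over left-out libraries. The members' median of 0.47 was -0.38 with plain sizes and between 0.09 and 0.84 over left-out libraries. Plain sizes turned nid-1 (-0.62) and cle-1 (-0.13), and nid-1 ran between -0.25 and 0.89 over left-out libraries.

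At day 12, DESeq2 called 4 genes. Without the replicate block lam-1 was at 0.10 and lam-2 at 0.14. Over left-out libraries emb-9 ran between -2.39 and 0.26, lam-1 between -1.62 and 0.76, lam-2 between -1.25 and 0.69, lam-3 between -1.10 and 0.15, epi-1 between -1.05 and 0.96, nid-1 between -0.90 and 0.93, cle-1 between -0.19 and 0.46 and ost-1 between -0.39 and 0.83.

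For N2 ageing 0 members passed without the replicate block or with plain sizes, and 0 to 2 over left-out libraries. Among all genes 1091 passed without the filter, 136 without the block, 3282 with DESeq2, 1328 with the 4 libraries alone, and 0 to 2473 over left-out libraries. The members' median ran between -1.10 and -0.35. Without the block lam-3 was at -0.06. Over left-out libraries lam-3 ran between -0.25 and 0.36 and lam-1 between -0.58 and 0.03.

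For mir-83 ageing members past the threshold numbered 2 to 7 and all genes 579 to 5649 over left-out libraries, and 6893 genes with plain sizes. The gene epi-1 was at 0.16 without the block and 0.77 with plain sizes. Over left-out libraries it ran between -1.38 and 0.64, lam-1 between -0.60 and 1.78 and lam-2 between -0.86 and 1.08.

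In the difference between ages, DESeq2 called 2 members, and left-out libraries gave 0 to 3. Among all genes 34 passed with RLE size factors, 313 without the filter, 1329 with DESeq2, 1751 with plain sizes and 0 to 553 over left-out libraries. The members' median was 0.58 with plain sizes and between -1.03 and 0.21 over left-out libraries. For nid-1 the value was 0.01 without the block, 0.84 with plain sizes, 0.08 with the highest transcript per gene and between -1.17 and 0.65 over left-out libraries. For cle-1 it was 0.31 with plain sizes and between -0.95 and 0.02 over left-out libraries. There lam-1 ran between -0.32 and 2.06, lam-2 between -0.35 and 1.59 and epi-1 between -0.36 and 1.66. The cause of each of these shifts was not tested. No reversal by any alternative touched a member past the threshold.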
